A study of Mus musculus with 4 samples.

Results

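Slfn1, Slfn2, Slfn5 and Slfn8 are 4 genes of the mouse Schlafen family, and they are followed here across naive and virtual memory CD8 T cells with and without interleukin-15 treatment. They were taken by gene symbol from a table of 15466 genes, which holds 8 Schlafen rows in all. The set was chosen by measured values in part: Slfn5 was selected on its count, far lower in treated than in untreated virtual memory cells, so that contrast is described and not tested. The other 4 Schlafen rows, Slfn3, Slfn4, Slfn9 and the pseudogene Slfn10-ps, are given for comparison.

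The RNA came from spleens of wild-type C57BL/6 mice. CD8 T cells were sorted into 4 groups of 1 library each: IL-15C virtual memory, IL-15C naive, untreated virtual memory and untreated naive. IL-15C is a complex of the cytokine interleukin-15 with its receptor chain IL-15Ra and was given 4 times a week, and the untreated mice received PBS. Virtual memory cells, which take on a memory surface without having met foreign antigen, were gated as CD44hi CD49d-, and naive cells as CD44- CD49d-. The titles give 3 mice for each library, the labels do not say whether RNA was pooled, and ages were not given in the sources used here. With 1 library a group there was no replicate check, no test and no p-value. The intervals given for ratios are 95% intervals that cover counting error only, and PCR copies among the reads can make the true error larger than they show.

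The Schlafen genes, named from the German for sleeping, were first found as genes of developing and resting mouse T cells, and most sit in a single cluster on chromosome 11. Short members such as Slfn1 and Slfn2 carry the core Schlafen domain alone, while long members such as Slfn5, Slfn8 and Slfn9 add a helicase-like part. Mouse T cells with a defective Slfn2 leave quiescence and survive poorly, the SLFN2 protein shields transfer RNAs from cleavage, and several family members are induced by interferons. In humans, the long member SLFN11 cleaves transfer RNAs under DNA damage.

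The sequences just upstream of the genes are shown because members of the family share short runs of letters there. They were taken from RefSeq on GRCm38.p6, the assembly also called mm10, and run 5′ to 3′ on the strand of the gene up to the base before its listed start. Capitals mark a match to one of a pair of motifs: GAAA followed after any 2 bases by GAAA, or TTTC followed after any 2 bases by TTTC on the other strand, the letters of interferon-stimulated response elements, and ACTTCCTG or CAGGAAGT, a core bound by ETS factors. The motifs were picked after the sequences had been seen. Slfn5 is cut at 133 bases, before its first GENCODE exon, and this stretch lies inside the longer RefSeq span of the gene, which begins upstream at an alternative start. Slfn8 has 2 listed starts, of which the first was used. The stretches lie at chr11:82951852-82951984 (+) for Slfn5, chr11:83020811-83021060 (−) for Slfn8, chr11:82991831-82992080 (−) for Slfn9, chr11:83064862-83065111 (+) for Slfn2, chr11:83116570-83116819 (+) for Slfn1 and chr11:83191080-83191329 (+) for Slfn3.
Slfn5: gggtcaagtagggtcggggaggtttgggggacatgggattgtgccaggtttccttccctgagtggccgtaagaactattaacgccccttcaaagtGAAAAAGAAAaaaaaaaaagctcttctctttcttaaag
Slfn8: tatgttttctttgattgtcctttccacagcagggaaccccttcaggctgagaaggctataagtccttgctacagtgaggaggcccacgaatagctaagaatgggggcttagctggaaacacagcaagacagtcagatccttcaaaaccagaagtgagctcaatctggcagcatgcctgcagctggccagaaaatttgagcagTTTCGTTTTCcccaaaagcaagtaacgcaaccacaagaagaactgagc
Slfn9: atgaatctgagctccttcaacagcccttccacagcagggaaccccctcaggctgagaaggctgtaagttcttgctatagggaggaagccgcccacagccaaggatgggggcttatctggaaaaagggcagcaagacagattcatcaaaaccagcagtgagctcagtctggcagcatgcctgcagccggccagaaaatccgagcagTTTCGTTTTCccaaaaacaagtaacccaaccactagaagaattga
Slfn2: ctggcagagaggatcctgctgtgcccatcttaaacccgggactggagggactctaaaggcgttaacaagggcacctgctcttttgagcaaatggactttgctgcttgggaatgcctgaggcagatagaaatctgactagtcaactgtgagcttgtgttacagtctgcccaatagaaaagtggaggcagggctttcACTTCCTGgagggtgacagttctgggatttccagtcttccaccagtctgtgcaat
Slfn1: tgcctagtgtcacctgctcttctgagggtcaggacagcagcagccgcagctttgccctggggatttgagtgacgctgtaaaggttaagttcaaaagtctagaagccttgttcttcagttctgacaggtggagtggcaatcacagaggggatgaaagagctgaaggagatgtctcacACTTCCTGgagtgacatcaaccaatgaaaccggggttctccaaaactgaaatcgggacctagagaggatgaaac
Slfn3: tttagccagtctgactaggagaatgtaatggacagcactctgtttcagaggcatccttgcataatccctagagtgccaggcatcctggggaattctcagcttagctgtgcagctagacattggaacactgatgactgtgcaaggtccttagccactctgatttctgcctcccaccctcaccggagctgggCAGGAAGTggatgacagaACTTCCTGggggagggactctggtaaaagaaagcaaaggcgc

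Counted to the first base of the match, the interferon-type letters were present 155 bases before the start in Slfn5, 48 before it in Slfn8 and 45 before it in Slfn9. The ETS-type letters were present 55 bases before the start in Slfn2, 74 in Slfn1, 73 in Slfn4, and 60 and 42 in Slfn3. None of the 9 Schlafen promoters searched held both, and those of Slfn14 and Slfnl1 held neither. Slfn10-ps was not among the 9. Over windows of 300 bases, 250 before and 50 after the start, the interferon-type letters occurred in 3.49% of 27025 RefSeq promoters and in 3 of 9 Schlafen promoters. The ETS-type letters occurred in 3.38% of those promoters and in 4 of the 9, while TTCNNNGAA, the letters of interferon-gamma activated sites, occurred in 8.47% and in 0 of the 9. Promoters of neighbouring duplicates resemble each other, so these matches are not independent. Slfn8 and Slfn9 shared 84.9% of their aligned bases, and Slfn1 and Slfn2 shared the run CACTTCCTGGAG around their ETS-type match. A match describes letters in a window and not a bound site.

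All 4 members were well counted in every library, and per transcript length their order was the same in each: Slfn2 above Slfn1, Slfn1 above Slfn8 and Slfn8 above Slfn5. Levels across genes are given as TPM, which divides reads by transcript length, and levels of one gene across libraries as TMM-scaled CPM, reads scaled to a common library size. Slfn2 is on chromosome 11 at 83065112 to 83070678 on the plus strand, Slfn1 at 83116820 to 83122670 on the plus strand, Slfn8 at 83002125 to 83020810 on the minus strand, and Slfn5 at 82951349 to 82964850 on the plus strand.

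Slfn2, the member whose defect in mice ends T cell quiescence, had 223 CPM in IL-15C virtual memory cells, 449 in IL-15C naive cells, 275 in untreated virtual memory cells and 287 in untreated naive cells. The reads behind these values were 9563 in IL-15C virtual memory, 20400 in IL-15C naive, 12315 in untreated virtual memory and 14623 in untreated naive cells. Its level was thus highest in naive cells of treated mice and lowest in virtual memory cells of treated mice, with the untreated pair close together between them. In TPM it was at 231 in IL-15C virtual memory, 456 in IL-15C naive, 317 in untreated virtual memory and 344 in untreated naive cells.

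Slfn1, whose forced expression slows T cell growth in mice, had 139 CPM in IL-15C virtual memory cells, 337 in IL-15C naive cells, 165 in untreated virtual memory cells and 199.7 in untreated naive cells. Its reads numbered 5962 in IL-15C virtual memory, 15318 in IL-15C naive, 7384 in untreated virtual memory and 10156 in untreated naive cells. The order of the 4 libraries was that of Slfn2. In TPM it was at 127 in IL-15C virtual memory, 301 in IL-15C naive, 167 in untreated virtual memory and 210.2 in untreated naive cells. As a ratio to the TPM of Slfn2 this was 0.548 in IL-15C virtual memory, 0.660 in IL-15C naive, 0.527 in untreated virtual memory and 0.610 in untreated naive cells. The pair thus stood in a similar ratio in each library.

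Slfn5, a long member that in human cells restrains herpesvirus transcription, had 6.51 CPM in IL-15C virtual memory cells, 97.0 in IL-15C naive cells, 72.3 in untreated virtual memory cells and 112 in untreated naive cells. The reads behind them were 279 in IL-15C virtual memory, 4408 in IL-15C naive, 3240 in untreated virtual memory and 5720 in untreated naive cells. The IL-15C virtual memory library stood apart from the other 3, which lay between 72.3 and 112 CPM. In TPM the gene was at 1.78 in IL-15C virtual memory, 27.4 in IL-15C naive, 23.1 in untreated virtual memory and 37.4 in untreated naive cells.

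Slfn8, a long member encoded on the opposite strand, had 54.6 CPM in IL-15C virtual memory cells, 139 in IL-15C naive cells, 135 in untreated virtual memory cells and 159 in untreated naive cells. It had 2339 reads in IL-15C virtual memory, 6304 in IL-15C naive, 6049 in untreated virtual memory and 8076 in untreated naive cells. Again the IL-15C virtual memory library was lowest. The IL-15C naive and untreated virtual memory libraries did not differ beyond counting error in CPM, with a log2 ratio of 0.04 and an interval of -0.01 to 0.09. They were in the other order in TPM, where Slfn8 was at 23.7 in IL-15C virtual memory, 59.1 in IL-15C naive, 65.2 in untreated virtual memory and 79.7 in untreated naive cells. For Slfn1, Slfn2 and Slfn5 every step in the order of libraries was larger than counting error.

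**Figure D1:**
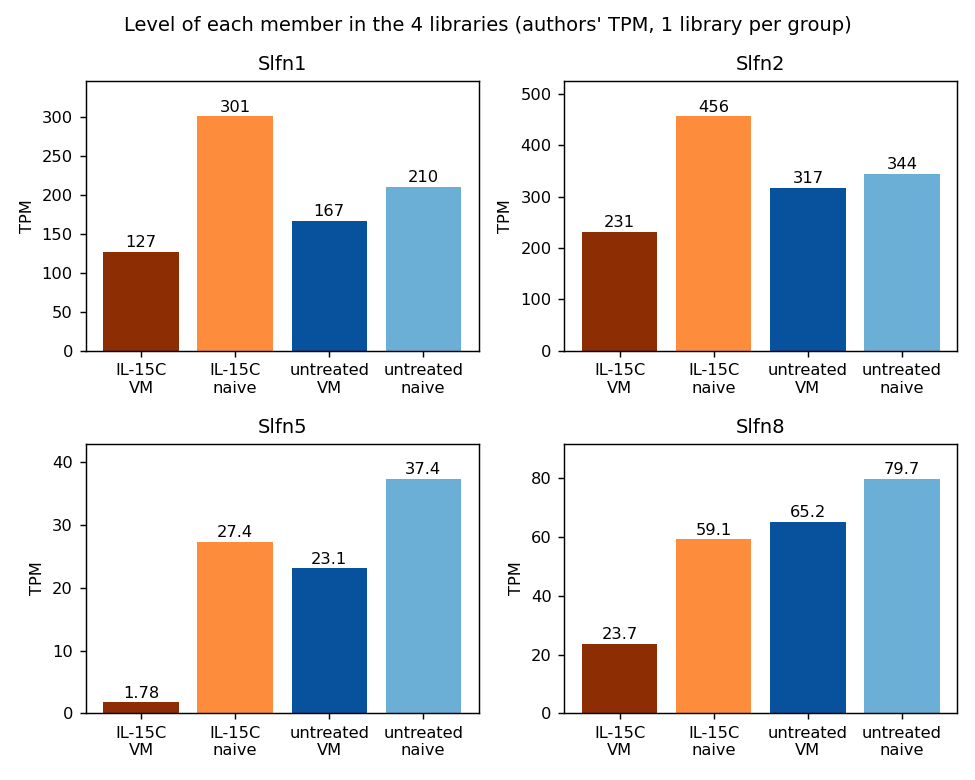
TPM of the 4 Schlafen genes, 1 panel per gene and 1 bar per library, on linear axes that start at 0 and differ in scale between panels; VM stands for virtual memory, and there are no error bars since each group has 1 library. Slfn5 was at 1.78 TPM in IL-15C virtual memory cells and between 23.1 and 37.4 TPM in the other 3 libraries, while Slfn2 was between 231 and 456 TPM throughout.

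The first question was how treatment changed the members in virtual memory cells. To be counted, a gene had to differ by 2-fold or more and to have its whole interval beyond 2-fold. By that rule 2 of the 4 members, Slfn5 and Slfn8, were lower in IL-15C than in untreated virtual memory cells, where 8.83% of 12370 compared genes were lower and 17.4% passed in either direction. Since this contrast chose Slfn5, nothing is read from that count. The log2 ratio of Slfn5 was -3.46, with an interval of -3.65 to -3.30, an 11-fold lower level that placed it at rank 25 from the lowest of the 12370. In bulk RNA, fewer cells that express a gene and less RNA of it per cell cannot be told apart. The log2 ratio of Slfn8 was -1.31, with an interval of -1.38 to -1.24, at rank 1009 from the lowest. The short members differed less, with log2 ratios of -0.24 (interval -0.29 to -0.19) for Slfn1 and -0.30 (interval -0.34 to -0.26) for Slfn2. All 4 members were below the median of all compared genes, which was -0.04. The rule for membership has no numeric threshold, so there are no values just inside or outside it.

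In naive cells the same treatment gave another pattern. None of the 4 members passed the rule, where 6.94% of 12174 compared genes did in either direction. Slfn1 had a log2 ratio of 0.75 (interval 0.72 to 0.79) and Slfn2 one of 0.64 (interval 0.61 to 0.67) in IL-15C over untreated naive cells. Slfn5 had a log2 ratio of -0.21 (interval -0.27 to -0.16) and Slfn8 one of -0.20 (interval -0.24 to -0.15). The short members thus had positive values and the long members slightly negative ones, all short of 2-fold, beside a median of 0.02 over all compared genes.

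**Figure D2:**
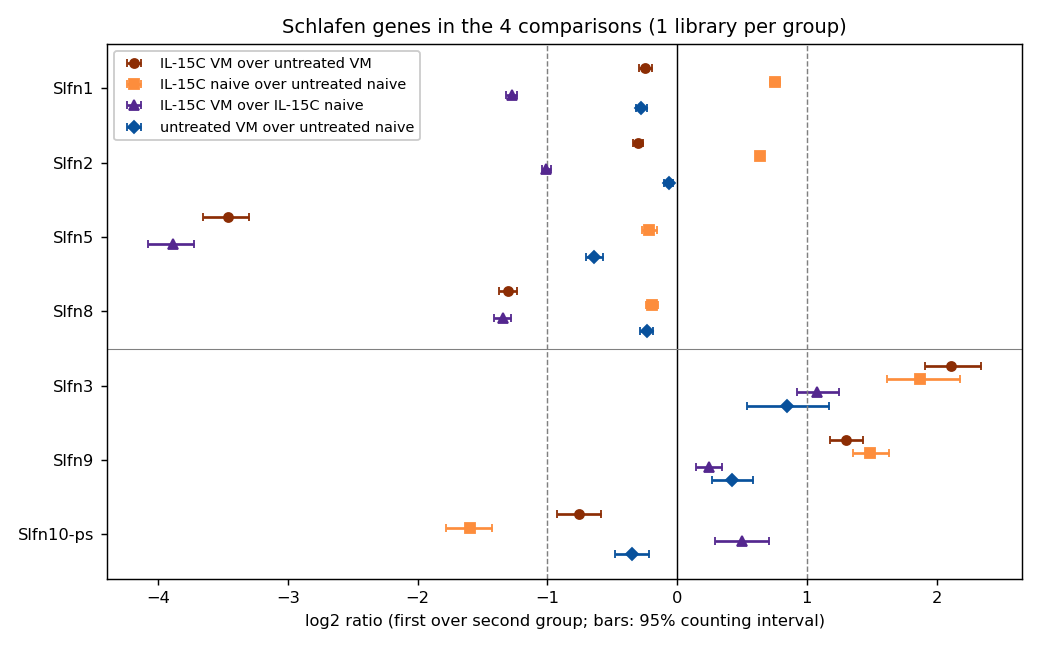
Log2 ratios of the compared Schlafen genes in the comparisons of the 4 libraries, each point with its 95% counting interval, VM for virtual memory and dashed lines at 2-fold. In IL-15C over untreated virtual memory cells Slfn5 was at -3.46 and Slfn8 at -1.31 while Slfn3 was at 2.11 and Slfn9 at 1.31.

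The difference between these responses, virtual memory minus naive, was negative for every member. Slfn5 passed the stricter 4-fold rule used for it, at -3.25 on the log2 scale with an interval of -3.45 to -3.07, and had rank 29 from the lowest of 12617 compared genes. It was the 1 member to do so, where 0.547% of the compared genes passed in the lower and 0.0634% in the higher direction. Slfn8 was at -1.11 (interval -1.20 to -1.03), Slfn1 at -0.999 and Slfn2 at -0.94, beside a median of -0.07 over all compared genes. The values for Slfn1, Slfn2 and Slfn8 were close to each other: for Slfn8 most of the difference was in the virtual memory response, and for Slfn1 and Slfn2 most of it was in the naive response. This difference contains the contrast that chose Slfn5.

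The second question was how the subsets differed. In treated mice 3 of the 4 members, Slfn1, Slfn5 and Slfn8, had lower levels in virtual memory cells than in their naive counterparts, where 5.91% of 12206 compared genes were lower, 6.52% were higher and 12.4% passed in either direction. This comparison shares its IL-15C virtual memory library with the contrast that chose Slfn5. Slfn5 had a log2 ratio of -3.89 (interval -4.08 to -3.72), a 14.8-fold lower level at rank 23 from the lowest. Slfn8 had -1.34 (interval -1.41 to -1.28) and Slfn1 had -1.28 (interval -1.32 to -1.23). Slfn2 had -1.01 with an interval of -1.04 to -0.97, which spans the 2-fold limit, so it was not counted. It was counted when counts were scaled by library totals or by upper quartiles.

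In untreated mice none of the 4 members passed the rule between virtual memory and naive cells, where 5.92% of 12259 compared genes passed in either direction, 4.81% higher and 1.11% lower. The IL-15C virtual memory library takes no part in this comparison, but the untreated virtual memory library is part of the contrast that chose Slfn5. Slfn5 had the most negative value of the members, a log2 ratio of -0.64 (interval -0.70 to -0.57), which is a 1.55-fold lower level in virtual memory cells. Slfn1 had -0.28 (interval -0.32 to -0.23), Slfn8 had -0.23 (interval -0.28 to -0.19) and Slfn2 had -0.06 (interval -0.10 to -0.03). All 4 values were below 0, beside a median of 0.01 over all compared genes.

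Slfn3 and Slfn9 were higher in IL-15C than in untreated virtual memory cells, the opposite direction to Slfn5 and Slfn8. Slfn3, an intermediate-length member, had 20.3 TPM in IL-15C virtual memory cells, 9.39 in IL-15C naive cells, 5.18 in untreated virtual memory cells and 2.97 in untreated naive cells. These rest on 138 to 916 reads a library. Slfn9, the long neighbour of Slfn8, had 6.67 in IL-15C virtual memory, 5.52 in IL-15C naive, 3.04 in untreated virtual memory and 2.31 in untreated naive cells on the TPM scale, from 615 to 1726 reads. Both were higher in each IL-15C library than in each untreated one. In virtual memory cells the log2 ratio of IL-15C over untreated was 2.11 (interval 1.91 to 2.34) for Slfn3 and 1.31 (interval 1.18 to 1.43) for Slfn9. In naive cells it was 1.88 (interval 1.62 to 2.18) for Slfn3 and 1.49 (interval 1.36 to 1.63) for Slfn9. Both genes passed the 2-fold rule in both subsets, where 8.6% of genes were higher in virtual memory cells and 4.95% in naive cells.

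Slfn10-ps, a pseudogene beside Slfn8 and Slfn9, had 5.14 TPM in IL-15C virtual memory cells, 3.56 in IL-15C naive cells, 9.65 in untreated virtual memory cells and 12.9 in untreated naive cells. It was lower in IL-15C than in untreated naive cells, with a log2 ratio of -1.60 (interval -1.78 to -1.43), where 1.99% of genes were lower. In virtual memory cells its log2 ratio was -0.75 (interval -0.93 to -0.59), short of the rule. None of these 3 genes passed the rule between virtual memory and naive cells. The log2 ratio of virtual memory over naive was 1.08 (interval 0.92 to 1.25) for Slfn3, 0.24 for Slfn9 and 0.50 for Slfn10-ps in treated mice. It was 0.85 for Slfn3, 0.43 for Slfn9 and -0.35 for Slfn10-ps in untreated mice. The difference of the responses, virtual memory minus naive, was 0.24 for Slfn3 (interval -0.13 to 0.59) and -0.18 for Slfn9 (interval -0.37 to 0.0015), both spanning 0, and 0.85 for Slfn10-ps (interval 0.60 to 1.09). Slfn4, known in mice from macrophages and other myeloid cells, had 7 to 11 reads a library and was under the minimum for comparison. The expression of Slfn14, Slfnl1 and Slfn5os was not analysed here.

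Summed over its 8 rows, the family made up 416 TPM in IL-15C virtual memory cells, 863 in IL-15C naive cells, 590.0 in untreated virtual memory cells and 689.8 in untreated naive cells. As a share of all assigned reads this was 0.0469% in IL-15C virtual memory, 0.107% in IL-15C naive, 0.0701% in untreated virtual memory and 0.0827% in untreated naive cells. The 4 members held 92.3% of the family's TPM in IL-15C virtual memory cells and 97.0% to 97.8% in the other 3 libraries. Slfn5 held 0.429% of the family TPM there, against 3.17% in IL-15C naive, 3.92% in untreated virtual memory and 5.41% in untreated naive cells. Slfn8 held 5.70% in IL-15C virtual memory, 6.85% in IL-15C naive, 11.1% in untreated virtual memory and 11.6% in untreated naive cells, so its share was lower in both IL-15C libraries. Slfn3 held 4.88% in IL-15C virtual memory, 1.09% in IL-15C naive, 0.878% in untreated virtual memory and 0.430% in untreated naive cells.

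Ratios between the long members differed between libraries as well. The TPM of Slfn9 was 0.282 of that of Slfn8 in IL-15C virtual memory cells, 0.0933 in IL-15C naive cells, 0.0466 in untreated virtual memory cells and 0.0290 in untreated naive cells. Slfn8 stood at 13.3 times the TPM of Slfn5 in IL-15C virtual memory cells, at 2.16 times in IL-15C naive cells, at 2.82 times in untreated virtual memory cells and at 2.13 times in untreated naive cells. The ratio of Slfn8 to Slfn5 was thus similar in the 3 libraries other than that of IL-15C virtual memory cells.

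**Figure D3:**
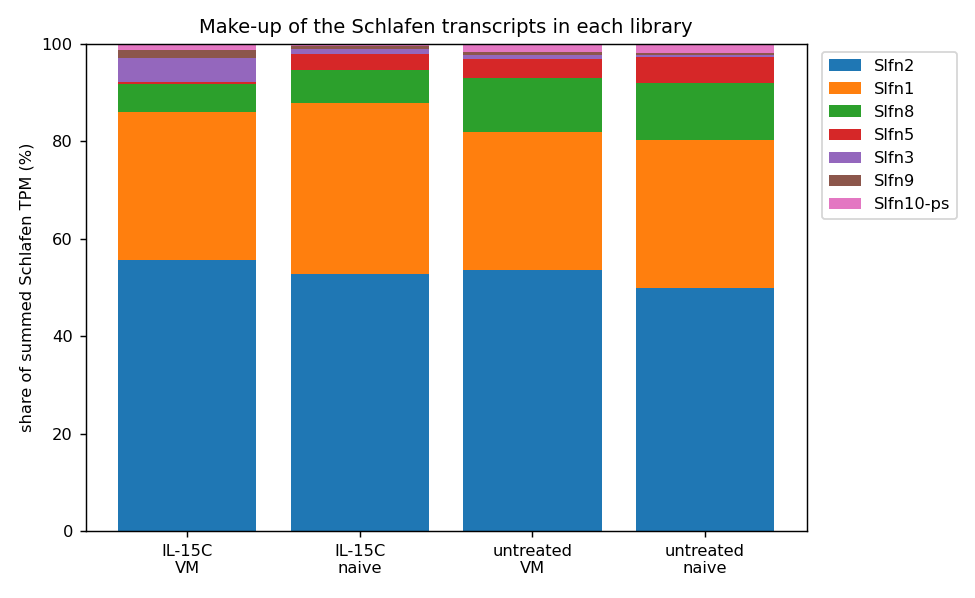
Share of the summed Schlafen TPM held by each gene in the 4 libraries, as stacked bars that start at 0; Slfn4 is not drawn. Slfn2 held between 49.9% and 55.6% in every library, while Slfn5 held 0.429% in IL-15C virtual memory cells and 5.41% in untreated naive cells.

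Related sequences can share reads between family members. Of the 100-base windows of Slfn1 transcripts in GENCODE M21 none occurred in another gene, and for Slfn2 0.128% did. For Slfn8 it was 3.38%, mainly with Slfn10-ps (2.45%) and Slfn9 (1.17%), for Slfn9 3.71%, for Slfn3 2.92% and for Slfn10-ps 7.84%. On the same strand 0.238% of Slfn5 windows were shared. On the opposite strand 6.16% of its 6296 windows were shared with the antisense gene Slfn5os. The libraries were made with a kit that marks strand. The sources used here do not state whether counting used it, so Slfn5 and Slfn5os reads cannot be told apart in those 388 windows.

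The genes around the cluster were compared to see whether they moved with it. Of 32 annotated genes other than Schlafen genes within 300 kb of the outermost members, 18 were in the table. In IL-15C over untreated virtual memory cells none of the 14 compared neighbours passed the 2-fold rule, and their log2 ratios ran from -0.99 to 0.93. For IL-15C over untreated naive cells none of 15 did, with values from -0.61 to 1.29. In IL-15C virtual memory over IL-15C naive cells 1 of 15, AI450353, was lower, at -1.55. Over all compared genes 17.4%, 6.94% and 12.4% passed in either direction in these comparisons, in that order. With this few neighbours, their counts are not read as differing from those shares. The neighbours include Lig3, a DNA ligase, and Rad51d, a recombination factor. In IL-15C over untreated virtual memory cells Slfn5 and Slfn8 lay below, and Slfn3 and Slfn9 above, the whole range of the compared neighbours. Slfn5 was chosen on this contrast, so nothing is read from its place below them.

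**Figure D4:**
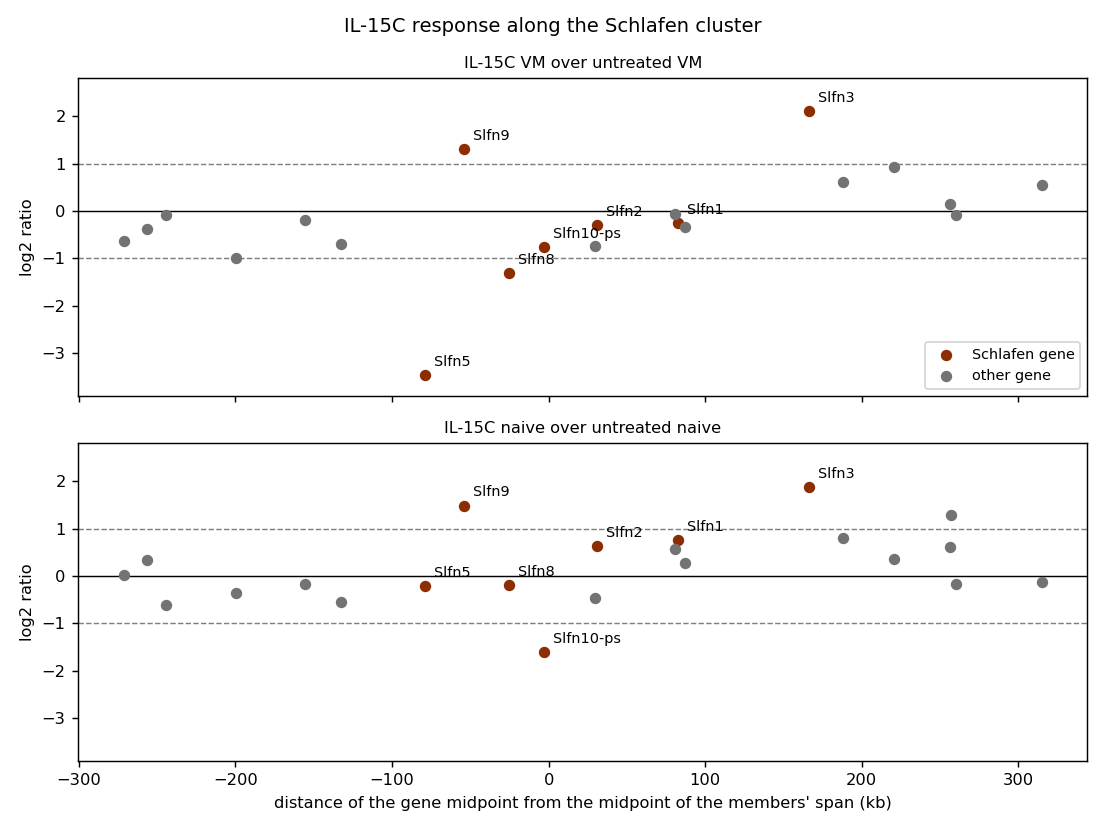
Log2 ratio of IL-15C over untreated cells for the genes of the Schlafen region, placed by their distance in kb along the chromosome, in virtual memory cells (upper panel) and naive cells (lower panel). In virtual memory cells, the contrast on which Slfn5 was chosen, the 14 neighbours lay between -0.99 and 0.93 and Slfn5 at -3.46.

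The genes most like each member were sought among 8210 genes with a mean of at least 10 CPM. Predicted, clone-named and ribosomal protein genes had been left out of this set. Likeness was the Euclidean distance between log2 CPM profiles over the 4 libraries, each centred on its own mean. Over 4 libraries a small distance is a description only. For Slfn1 the nearest genes were H2-T24, a non-classical MHC class I gene, at 0.03, then Izumo1r at 0.16 and Bambi-ps1 at 0.19. For Slfn2 they were Snhg1, a host gene of small nucleolar RNAs, at 0.07, Ifi47, an interferon-induced GTPase, at 0.09 and Slamf6, a receptor of lymphocytes, at 0.10. For Slfn8 they were Apbb3 at 0.07, Ttc14 at 0.10 and Clk4, a kinase of splicing factors, at 0.11.

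The profile of Slfn5 had no such close match. It includes the low IL-15C virtual memory value on which Slfn5 was chosen. The distance grows with the size of a difference, so the lack of a close match is not read as a result. The nearest were Wls, which carries Wnt proteins to the cell surface, at 0.30, Eng, a co-receptor for TGF-beta family ligands, at 0.51 and Afap1, an actin-binding protein, at 0.56. Wls had 2.52 CPM in IL-15C virtual memory cells, 28.3 in IL-15C naive cells, 23.8 in untreated virtual memory cells and 36.8 in untreated naive cells. Its log2 ratio of IL-15C over untreated was -3.22 in virtual memory cells and -0.38 in naive cells, beside -3.46 and -0.21 for Slfn5. Wls was picked for a near profile, so this likeness is not a separate result.

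Other genes of T cell quiescence were read beside the members. The list of 21 such genes holds no Schlafen gene. In IL-15C over untreated virtual memory cells 3 of the 21 were lower and 1 was higher, with a median log2 ratio of -0.63. Over all compared genes 8.83% were lower there, 8.6% higher and 17.4% either, with a median of -0.04. Counts this close to the share of all genes are not read as a result about the list. Bach2, a repressor that holds back effector genes, was lower at -1.22, as were Btg1, an antiproliferative gene, at -1.21 and the transcription factor Klf4 at -2.13, and Cdkn2c, a cyclin-dependent kinase inhibitor, was higher at 3.52. Klf4 rests on 23 reads with and 112 without IL-15C, at 0.537 and 2.50 CPM. In IL-15C over untreated naive cells 1 of the 21 was higher, again Cdkn2c at 3.35, none was lower, and the median was -0.35. All compared genes gave 4.95% higher and 1.99% lower there, with a median of 0.02. In IL-15C virtual memory over IL-15C naive cells 3 of the 21 were lower and 1 was higher, with Btg1 at -1.59, Peli1 at -1.40 and Lef1 at -1.30, Cdkn2c at 1.42 and a median of -0.38. All compared genes gave 5.91% lower and 6.52% higher there, with a median of -0.01. In virtual memory over naive cells of untreated mice Cdkn2c was at 1.25, the 1 gene of the 21 counted as higher, none was lower and the median was -0.08. All compared genes gave 4.81% higher and 1.11% lower there, with a median of 0.01. Cdkn2c was not counted there under DESeq2 size factors, library totals or upper-quartile scaling.

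Interferon-induced genes gave a contrast between the subsets. Of 28 compared, 17 were higher and none lower in IL-15C over untreated naive cells, with a median log2 ratio of 1.25. Over all compared genes 4.95% were higher and 1.99% lower there. Oasl2, an antiviral oligoadenylate synthetase-like gene, was at 2.39 and Ifit3b at 2.36. In IL-15C over untreated virtual memory cells 1 of the 28, Ifi27l2a, was higher, none was lower and the median was 0.22. Over all compared genes 8.6% were higher and 8.83% lower there. The number higher among the 28 was 0 with library totals and 2 with DESeq2 size factors. Slfn1 and Slfn2 had their highest CPM in IL-15C naive cells, short of 2-fold over untreated naive cells. Slfn5 and Slfn8 had theirs in untreated naive cells. A link between the members and the interferon-induced genes was not tested. In IL-15C virtual memory over IL-15C naive cells 16 of the 28 were lower and none was higher, with Iigp1 at -3.54, Ifit1 at -2.66 and a median of -1.14. Over all compared genes 5.91% were lower and 6.52% higher there. In virtual memory over naive cells of untreated mice 1 of the 28, Iigp1 at -1.28, was lower and the median was -0.06. There 1.11% of all compared genes were lower and 4.81% higher. The difference of the responses, virtual memory minus naive, was beyond 4-fold and lower for 3 of the 28, with Ifi44 at -3.03, Ifit1 at -2.31 and Iigp1 at -2.26, and the median was -1.05. By that rule 0.547% of all compared genes were lower. Ifi44 rests on 35 reads with and 54 without IL-15C in virtual memory cells, and on 390 and 76 in naive cells.

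Of 14 genes of interferon receptors and their signalling, 1, Ifngr2 at -2.47 from 0.9802 CPM with and 5.62 CPM without IL-15C, was lower and none higher in IL-15C over untreated virtual memory cells, with a median of -0.32. Over all compared genes 8.83% were lower and 8.6% higher there. None of the 14 passed the rule in IL-15C over untreated naive cells, where their median was 0.01 and 6.94% of all compared genes passed. In IL-15C virtual memory over IL-15C naive cells 3 of the 14 were lower, among them Ifngr2, which encodes a chain of the receptor for interferon-gamma, at -4.76, and Socs3, a feedback inhibitor of cytokine signalling, at -1.41. The median of the 14 there was -0.08, and 5.91% of all compared genes were lower. In virtual memory over naive cells of untreated mice Ifngr2 was lower at -2.84 and Ifngr1, its partner chain, was higher at 1.10, with a median of -0.05. There 1.11% of all compared genes were lower and 4.81% higher.

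Another list joined genes of transfer RNA cleavage and protection, the process in which mouse SLFN2 acts, with genes of the translation factor eIF2 and its kinases. The former were Rnh1, Nsun2, Trdmt1 and Rtcb, and the latter Eif2ak1, Eif2ak2, Eif2ak3, Eif2ak4 and Eif2s1. Ang, which encodes a nuclease, was listed but was not in the table. None of the 9 compared genes passed the rule in any of the 4 comparisons. Over all compared genes 5.92% to 17.4% passed in either direction. The median log2 ratio of the 9 was 0.21 in IL-15C over untreated virtual memory cells and 0.27 in IL-15C over untreated naive cells. It was 0.14 in virtual memory over naive cells of treated mice and 0.20 in those of untreated mice.

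The 20 cell cycle genes were all higher in IL-15C than in untreated cells, in virtual memory cells with a median log2 ratio of 3.70 and in naive cells with one of 5.61. Over all compared genes 8.6% were higher in the virtual memory and 4.95% in the naive response. Virtual memory cells had 14 of the 20 higher and none lower than naive cells, with a median of 1.39 in treated mice and 3.14 in untreated mice. There 6.52% of all compared genes were higher in treated and 4.81% in untreated mice. For the 20 genes the difference of the responses, virtual memory minus naive, had a median of -1.48. Of these, 3 were beyond 4-fold and lower, beside 0.547% of all compared genes. They were Bub1, Ccne2 and Ccna2, which had low levels in untreated naive cells. Bub1 had 24 reads there (0.472 CPM), Ccne2 had 16 (0.315 CPM) and Ccna2 had 57 (1.12 CPM). Of 9 genes of the IL-15 receptor and its signalling, 2 were higher and none lower in IL-15C over untreated virtual memory cells, with Cish, a STAT5 target that restrains cytokine signalling, at 2.37, Socs2 at 2.46 and a median of 0.11. The naive response had 1 higher, Socs2 at 2.93, from 47 reads with and 5 reads without IL-15C, with a median of -0.16. With a minimum of 5 CPM, none was counted in the naive response and 1 in the virtual memory response. Between virtual memory and naive cells 3 of 9 were higher in treated mice, with a median of 0.59, and 1 of 8 compared in untreated mice, with a median of -0.03. For each of these comparisons the share of all genes higher is the one given above beside the cell cycle genes. Il2rb, a chain of the receptor for IL-15, was higher in virtual memory than in naive cells, at 2.47 in treated and 2.40 in untreated mice, and Cish at 1.62 and Socs2 at 1.99 were the others counted in treated mice. Klf4, Peli1, Lef1, Ifi44 and Socs2 were named after their values had been seen. So were Btg1 and Ifngr2 in the virtual memory response, and Ccna2 in the difference of responses.

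**Figure D5:**
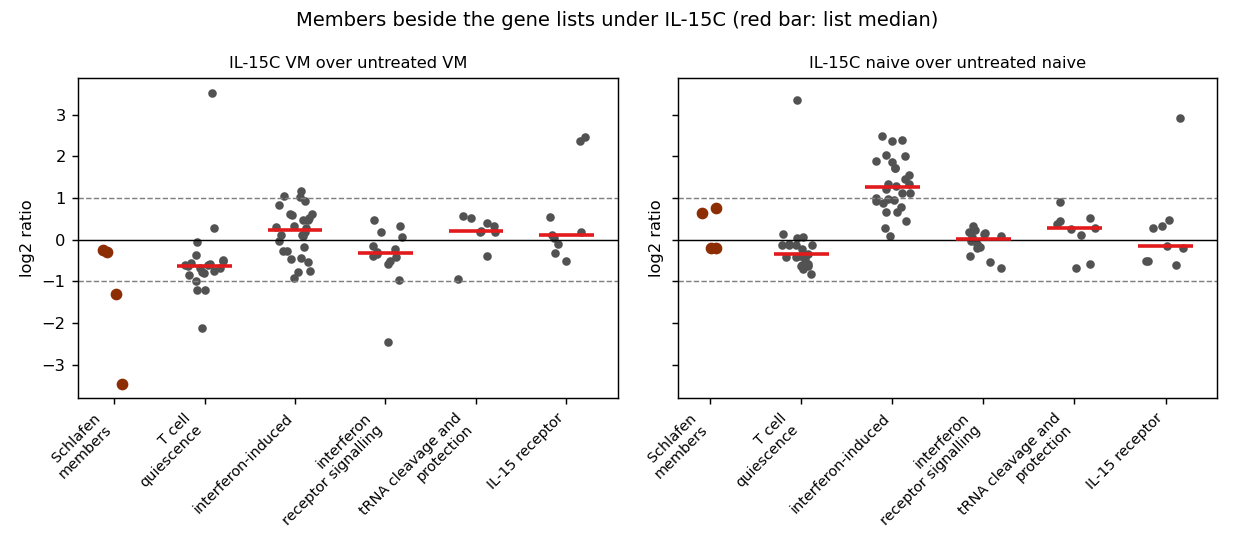
Log2 ratios of the genes of each list in IL-15C over untreated virtual memory cells and in IL-15C over untreated naive cells, 1 point per compared gene with the list's median as a bar, beside the 4 members; VM stands for virtual memory, and the cell cycle genes are not drawn. Interferon-induced genes had a median of 0.22 in virtual memory cells and 1.25 in naive cells.

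The libraries held 43862816 to 48950547 assigned reads, so that 1 read was worth 0.0204 to 0.0228 CPM. Markers of CD8 T cells summed to 3518 to 4961 CPM. Cd44, a marker of the sort, was at 243 in IL-15C virtual memory, 17.2 in IL-15C naive, 232 in untreated virtual memory and 8.65 in untreated naive cells on the CPM scale. Itga4, which encodes the CD49d chain of the gate, was at 50.9 in IL-15C virtual memory, 289.6 in IL-15C naive, 351 in untreated virtual memory and 614 in untreated naive cells. Markers of B cells, 5 of 6 in the table and all lower with IL-15C in virtual memory cells, had a summed level of 34.0 CPM with IL-15C and 177 CPM without it in virtual memory cells, the pair in which Slfn5 was at 6.51 CPM with and 72.3 CPM without IL-15C. Within treated mice they summed to 34.0 CPM in the virtual memory library and 24.6 CPM in the naive one, the pair in which the Slfn5 level was 6.51 CPM (virtual memory) against 97.0 CPM (naive). Markers of dendritic cells, 4 of 6, differed in direction between IL-15C and untreated virtual memory cells: Itgax was higher with IL-15C, at 55.6 against 21.5 CPM, and H2-Aa (7.19 against 38.0), H2-Ab1 (8.40 against 33.9) and Flt3 (0.373 against 1.32) were lower. Together they summed to 71.5 and 94.8 CPM in the IL-15C and untreated virtual memory libraries and to 2.86 and 2.04 CPM in the IL-15C and untreated naive ones. Markers of macrophages and granulocytes, 3 of 6, summed to between 1.76 and 12.5 CPM over the 4 libraries. Among them Cd68 was higher in IL-15C than in untreated virtual memory cells, at 12.1 against 3.71 CPM, and Csf1r (0.187 against 4.44) and Lyz2 (0.233 against 2.61) were lower. Those of red cells and platelets, 3 of 5, summed to between 1.49 and 5.16 CPM, with 2 of the 3 lower with IL-15C in virtual memory cells. Of the CD4 and regulatory T cell markers, 4 of 5, Il2ra was higher in IL-15C than in untreated virtual memory cells, at 46.7 against 4.55 CPM, and Zbtb7b (3.83 against 10.9), Ctla4 (1.56 against 7.63) and Foxp3 (0.350 against 2.21) were lower. They summed to 52.4 and 25.3 CPM in the IL-15C and untreated virtual memory libraries and to 7.55 and 3.79 CPM in the IL-15C and untreated naive ones. NK and gamma-delta T cell markers, 5 of 6, summed to 38.5 and 24.0 CPM in the IL-15C and untreated virtual memory libraries and to 5.54 and 1.24 CPM in the IL-15C and untreated naive ones. The part of these markers in the Schlafen values was not tested.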

How the data were processed

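RNA of sorted mouse spleen CD8 T cells was sequenced in 4 libraries, 1 per group. Per the submitters' processing notes, the build was mm10 and the tools were HISAT2 2.1.0 with StringTie 2.1.3b, Trimmomatic 0.38 and FastQC 0.11.7, besides SAMtools 1.9, R 4.2.2 and edgeR. The strand setting of the counting and the annotation version are not given in the sources used here. The authors deposited whole read counts for each gene, not normalized. TPM values and FPKM values per gene were also deposited by the authors, and the FPKM were not used here. The authors' deposited log2 columns hold the log2 of 1 + TMM-scaled CPM, and differ from values recomputed from the counts by at most 5.0e-09. Signed fold scores and p-values of the authors' comparisons are in the deposited table and no result here rests on them. Another 10 columns with values of single samples were left unused. Counts in the table start at 1: genes without a read in some library were not analysed here. Columns headed ctrl were taken as the groups the labels call wild type.

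The members and gene lists were chosen with earlier results of these data known. Counts were scaled by TMM (edgeR 4.0.16 in R 4.3.3) with a prior count of 2, and the factors were 0.946, 0.996, 1.02 and 1.04 for IL-15C virtual memory, IL-15C naive, untreated virtual memory and untreated naive cells. The 95% intervals of count ratios are exact (Clopper-Pearson). Genes needed 20 reads over the pair of libraries and 1 CPM in the larger of them to be compared, and were counted at 2-fold, or at 4-fold for the difference of responses. The steps were checked on simulated counts. Named genes are the members, the other Schlafen rows, the 3 nearest profiles per member, neighbours, and per list up to 2 counted genes of largest ratio that reach 10 CPM; AI450353, Lig3 and Rad51d are neighbours. Of the IDs, 15428 matched RefSeq. DESeq2 1.42.0 gave the alternative size factors.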

Additional observations from a re-analysis of the deposited data

Results flagged for a closer look

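Slfn1 had a log2 ratio of IL-15C over untreated of -0.24 in virtual memory cells and 0.75 in naive cells. Slfn2 had one of -0.30 in virtual memory cells and 0.64 in naive cells. These are set apart because the values had opposite signs in the subsets. With 1 library a group the difference was not tested.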

How the results depend on the processing

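No paired analysis was possible because each group has 1 library, and for the same reason no replicate could be left out. There were 6 settings that can move a ratio (3 scalings, 2 prior counts and the authors' TPM). Under them none of the 120 member values changed sign, and they moved by -0.24 to 0.08 on the log2 scale. Of 20 member values per setting, 8 stayed inside the main interval under the authors' TPM and 10 under library totals. The number was 14 under DESeq2 size factors, 16 under upper-quartile scaling and 20 under each prior count. The intervals thus do not cover the choice of scaling. None of the 90 values of Slfn3, Slfn9 and Slfn10-ps changed sign either. The filters and the fold limit leave a ratio as it is and bear on counts only. Scaling by library totals shifted the median of all genes by -0.11 in IL-15C over untreated virtual memory cells. With a 1.5-fold limit (2-fold for the difference of responses) the genes counted became 4354 for IL-15C over untreated virtual memory cells (2156 at the main limit), 2361 for IL-15C over untreated naive cells (845), 641 for the difference of responses (77), 3264 for virtual memory over naive cells in treated mice (1517) and 1207 in untreated mice (726). The list genes counted then became 50 (from 32) for the virtual memory response and 29 (from 7) for the difference of responses. The members counted became 2 (from 0) for the naive response, Slfn1 and Slfn2, and 2 (from 1) for the difference of responses, Slfn5 and Slfn8. A minimum of 5 CPM left 467 genes counted in untreated mice, where fewer genes were compared. The setting without a filter kept the minimum of 20 reads for the difference of responses. Depth limits Slfn4, whose highest count was 11 reads.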
